A study of Mus musculus with 2 samples.

Results

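Ganglion cell identity and neurofilament genes, 10 in number, were followed through 2 single-nucleus RNA-seq libraries of the mouse retina. They are the POU-domain factors Pou4f1, Pou4f2 and Pou4f3, the RNA-binding proteins Rbpms and Rbpms2, the glutamate transporter Slc17a6, the neurofilament subunits Nefl and Nefm, the surface glycoprotein Thy1 and the synuclein Sncg. Members were matched by gene symbol, and 10 of 10 were among the 32227 genes of the deposited gene table. No level served as a filter for membership, but the members were chosen with earlier results of these data known.

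Retinal ganglion cells (RGCs) are the output neurons of the retina. Their axons form the optic nerve and carry the visual signal to the brain. The Pou4f factors act in their differentiation and survival. Rbpms is widely used as a marker of the whole class. Slc17a6 loads glutamate into synaptic vesicles, and neurofilaments are the intermediate filaments that set the calibre of long axons.

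Both libraries came from whole retinas at postnatal day 21, strain C57 BL/6J by the labels. The Cre- library, with genotype WT in the labels, came from animals without the Cre transgene. The Tet tcKO library came from animals with floxed Tet1, Tet2 and Tet3, the enzymes that oxidise methylated cytosine, and with Chx10-Cre-GFP, a transgene active in retinal progenitor cells whose known mosaic activity the study countered by breeding in a further copy. Nuclei of 2 dissociation pools entered each library, and no column of the deposited tables tells the pools apart. Each genotype was therefore 1 sample, differences have no replicate check, and no p-value is given. The whole-series facts that bear on the genes are these. The libraries held 7357 (Cre-) and 6766 (Tet tcKO) nuclei with 11510585 and 16590747 UMIs, the molecule counts of this 3′ assay, and shared 1 cell barcode. The targeted genes had 50.2 (Tet1), 105 (Tet2) and 180 CPM (Tet3) in the Cre- library against 61.2, 139 and 174 CPM in the Tet tcKO library, where CPM is UMIs per 1000000 of the population. The counts were made per gene and not per exon, and they test neither the deletion nor the label of a library. The 13 mitochondrial genes held 5.47% of UMIs in Cre- and 1.76% in Tet tcKO.

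The authors annotated 567 Cre- and 704 Tet tcKO nuclei as RGCs, with medians of 1601 and 2381 UMIs and totals of 1230236 and 2132935 UMIs. The annotation was made from marker genes, which may include members of this set, so a high level in RGCs is described and not tested. The label was compared with the listed ganglion cell genes outside the set (Ebf3, Isl2 and Nefh) and with amacrine genes. Ebf3, a transcription factor of ganglion and some amacrine cells, stood at 287 CPM in Cre- RGCs and 278 CPM in Tet tcKO RGCs, against 53.7 and 55.9 CPM in amacrine nuclei. Isl2 was sparse in Cre- RGCs, with 6 UMIs (4.88 CPM) against 54 UMIs (25.3 CPM) in Tet tcKO RGCs, and 0 and 5 UMIs in amacrine nuclei. Nefh stood at 63.4 and 25.8 CPM in RGCs against 30.4 and 13.2 CPM in amacrine nuclei. Gad1, a GABA-synthesising enzyme of amacrine cells, stood at 17.9 and 19.7 CPM in RGCs against 174 and 164 CPM in amacrine nuclei. Gad2 was higher in Tet tcKO RGCs, at 5.69 (2.29 to 11.7) and 24.8 CPM (18.6 to 32.5), against 69.8 and 122 CPM in amacrine nuclei. Slc32a1 (2.44 and 9.85 CPM in RGCs), Tfap2a (4.06 and 8.91) and Tfap2b (43.9 and 53.4) also stood higher in Tet tcKO. Slc6a9 (32.5 and 23.4 CPM) stood lower. The intervals of Slc32a1, Tfap2a, Tfap2b and Slc6a9 overlapped between libraries. The amacrine marker list of 11 genes summed to 573 CPM in Cre- RGCs (10 genes with a UMI) and 693 CPM in Tet tcKO RGCs (10 genes), and to 2073 and 2348 CPM in amacrine nuclei. The RGC nuclei lay in 4 of the authors' clusters that the genotypes filled unequally. Cluster 8 held 394 Cre- and 29 Tet tcKO nuclei, cluster 2 held 111 and 185, cluster 31 held 58 and 273, and cluster 15 held 4 and 217. Among the 10 genes leading each cluster over other nuclei, 1 was a listed ganglion cell marker in cluster 2 and 0 were in clusters 8, 15 and 31. In each of them, 0 were listed markers of another class.

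In GRCm39 with GENCODE annotation, Pou4f1 lies on the minus strand of chromosome 14 from 104699112 to 104705504 and overlaps no other annotated gene. Rbpms2 lies on chromosome 9 from 65536351 to 65567819 and Thy1 on the same chromosome from 43954332 to 43959880, both on the plus strand and both free of overlap. The neurofilament genes are neighbours on chromosome 14, with Nefl on the plus strand from 68321268 to 68326544 and Nefm on the minus strand from 68320039 to 68362305, so that the annotated span of Nefm takes in the whole of Nefl. Rbpms (chromosome 8, minus strand, 34272116 to 34420037) overlaps 4 genes, 1 of them on its own strand. Slc17a6 (chromosome 7, plus strand, 51271434 to 51320867) overlaps 2 genes, 1 of them on its own strand. Sncg (chromosome 14, minus strand, 34092231 to 34100539) overlaps Mmrn2 on the other strand, and Pou4f2 (chromosome 8, minus strand, 79159638 to 79163278) overlaps Gm63807 on the other strand. No source used here says whether counting used strand, so the division of reads within these overlaps, that of Nefl and Nefm included, is uncertain.

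Since the deleted enzymes act on methylated cytosine in CG pairs, the CG content of the members' promoters is part of the setting of the comparison. Methylation itself was not measured in these libraries. RefSeq promoter windows (GRCm38.p6, the 250 bases before the annotated start) were matched by symbol for 5 members, Pou4f1, Pou4f2, Rbpms2, Slc17a6 and Sncg, and not for Pou4f3, Rbpms, Nefl, Nefm and Thy1. Windows of 3 members follow in lower case with each CG in capitals, because they run from CG-dense (Pou4f1, Rbpms2) to near the median of all windows (Slc17a6).
Pou4f1 (chr14:104468000-104468249, minus strand): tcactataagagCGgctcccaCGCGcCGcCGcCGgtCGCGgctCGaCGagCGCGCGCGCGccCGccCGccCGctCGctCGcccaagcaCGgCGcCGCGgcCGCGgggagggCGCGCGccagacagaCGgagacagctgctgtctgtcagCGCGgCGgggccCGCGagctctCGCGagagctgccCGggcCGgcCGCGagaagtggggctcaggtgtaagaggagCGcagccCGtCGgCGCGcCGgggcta
Rbpms2 (chr9:65630332-65630581, plus strand): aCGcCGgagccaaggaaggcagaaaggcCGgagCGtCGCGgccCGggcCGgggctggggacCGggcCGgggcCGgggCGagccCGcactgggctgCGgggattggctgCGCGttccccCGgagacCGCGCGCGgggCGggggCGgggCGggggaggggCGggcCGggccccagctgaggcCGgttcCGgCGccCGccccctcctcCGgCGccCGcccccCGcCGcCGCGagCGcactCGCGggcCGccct
Slc17a6 (chr7:51621580-51621829, plus strand): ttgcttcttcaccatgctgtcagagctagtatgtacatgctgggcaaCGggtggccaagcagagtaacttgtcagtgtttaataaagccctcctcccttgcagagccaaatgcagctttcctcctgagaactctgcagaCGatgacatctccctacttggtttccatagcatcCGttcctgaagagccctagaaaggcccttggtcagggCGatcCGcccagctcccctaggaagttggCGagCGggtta
The Pou4f1 window held 47 CG pairs, and 0.250% of 32851 windows of that length held as many or more. The Rbpms2 window held 41, with 1.09% of windows at that number or above. Pou4f2 (17 CG pairs), Sncg (7) and Slc17a6 (7 at the start shown and 3 at a second start) were nearer to the median of 6 over all windows. CG is its own reverse complement, so both strands give the same counts, and 92.1% of all windows held at least 1.

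Across annotated classes, Rbpms was the gene that set RGCs apart most clearly. In Cre- it stood at 936 CPM in RGCs (883 to 992), 104 CPM in bipolar nuclei (89.7 to 120), 75.2 CPM in rods (68.7 to 82.1), 51.4 CPM in cones (38.5 to 67.2) and 44.8 CPM in amacrine nuclei (29.0 to 66.1). Ranges in parentheses are exact 95% Poisson intervals here and after every level, and they cover counting error only. The intervals of RGCs, bipolar nuclei and rods did not meet, whereas those of cones and amacrine nuclei overlapped. In Tet tcKO the order was RGCs at 1067 CPM (1023 to 1111), bipolar nuclei at 69.1 CPM (61.5 to 77.2), cones at 64.0 CPM (58.4 to 70.1) and amacrine nuclei at 37.6 CPM (30.1 to 46.3), with bipolar nuclei and cones overlapping. The names of rods, cones, bipolar cells and Müller glia are the authors' annotation only, and Tet tcKO had just 6 rod-annotated nuclei. Rods and cones were therefore pooled for every ratio between genotypes, and bipolar levels were not compared.

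Nefl ran against the other members in its distribution. In Cre- it stood higher in rods, at 238 CPM (227 to 251), than in RGCs, at 149 CPM (128 to 172), and cones followed at 126 CPM (105 to 150), overlapping RGCs. Amacrine nuclei at 104 CPM (78.9 to 134), Müller glia at 99.0 CPM (62.1 to 150) and bipolar nuclei at 97.99 CPM (83.9 to 114) overlapped each other and cones. In Tet tcKO cones were at 101 CPM (93.5 to 108), above RGCs at 77.8 CPM (66.4 to 90.6). Bipolar nuclei at 49.5 CPM and amacrine nuclei at 47.0 CPM were below. Müller glia were at 67.0 CPM with a wide interval (32.1 to 123). The other neurofilament gene, Nefm, was highest in RGCs of both genotypes among classes of 100 nuclei or more, at 197 (173 to 223; Cre-) and 83.5 CPM (71.6 to 96.7; Tet tcKO), while its remaining class levels were 22.5 to 50.0 CPM (Cre-) and 19.2 to 33.5 CPM (Tet tcKO).

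The share of each gene's UMIs that came from RGC-annotated nuclei varied widely among members. RGCs held 10.7% of all UMIs in Cre- and 12.9% in Tet tcKO. Of Rbpms UMIs the Cre- RGCs held 60.1% (57.9 to 62.3) and the Tet tcKO RGCs 72.1% (70.5 to 73.6). Rbpms2 followed with 49.1% and 59.8%, Pou4f2 with 48.7% and 52.9%, Slc17a6 with 45.9% and 55.0%, and Pou4f1 with 34.97% and 46.1%. Nefm had nearly equal shares in both libraries, 32.5% (29.2 to 36.0) and 32.7% (28.8 to 36.8), as did Thy1 with 25.8% and 26.0%. Sncg was lower with 14.9% and 25.2%, and Pou4f3 had 2 of 7 and 2 of 8 UMIs in RGCs. Nefl, at 8.56% (7.41 to 9.83), was under the RGC share of all UMIs in Cre- and about level with it in Tet tcKO, at 13.2% (11.4 to 15.2). Summed over the 10 members, RGCs held 32.7% of UMIs in Cre- and 49.1% in Tet tcKO.

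**Figure D1:**
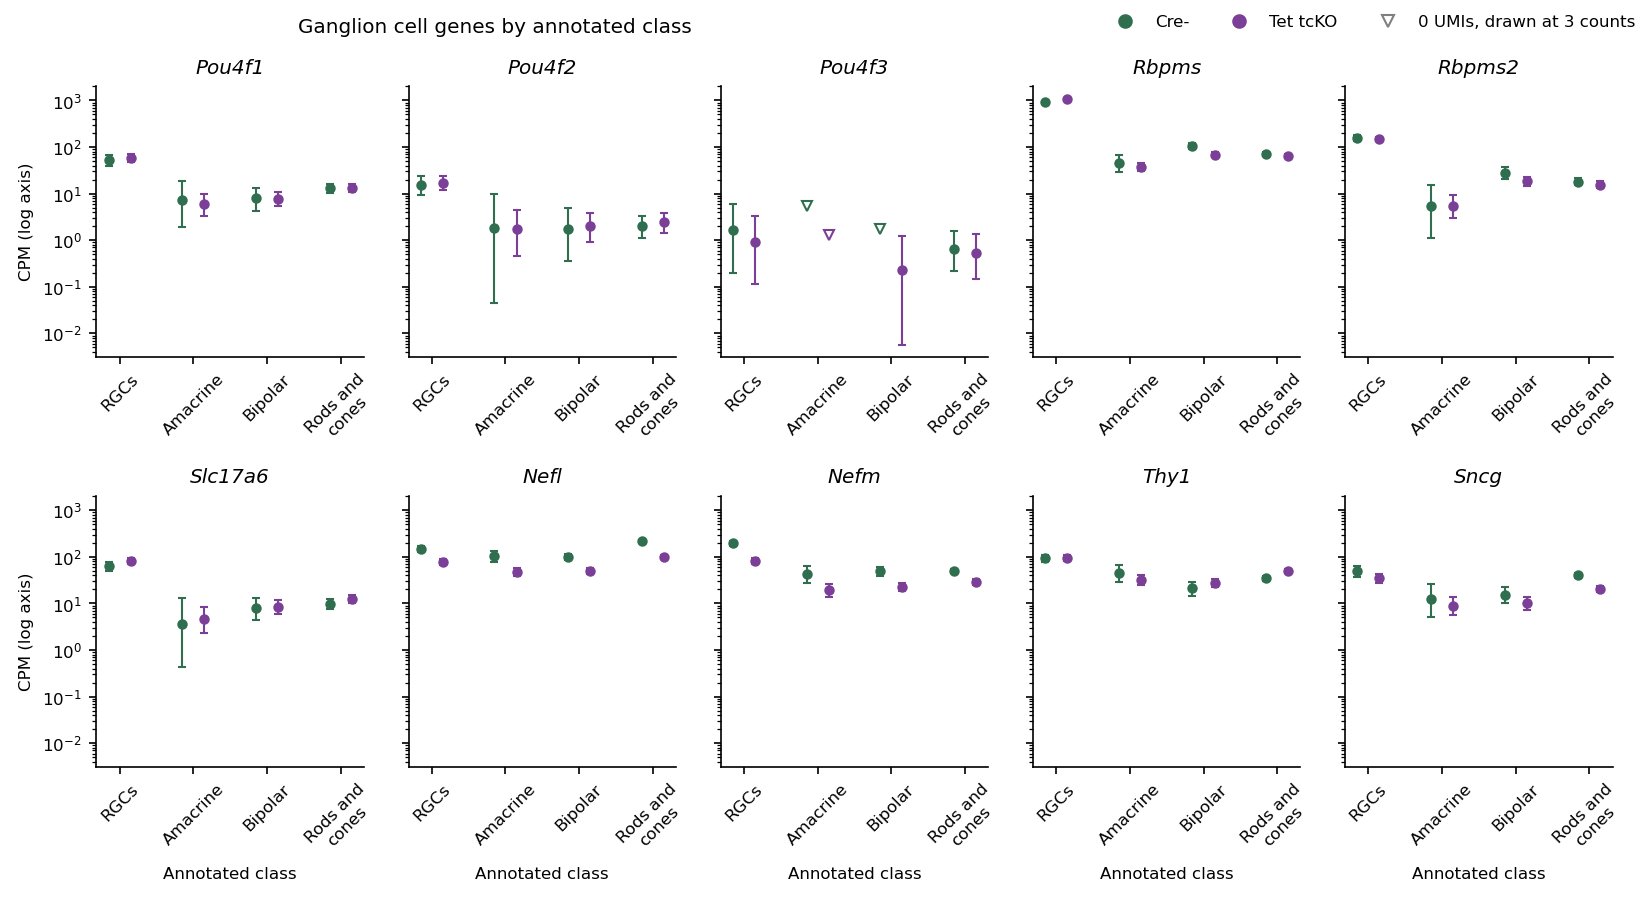
Level of each of the 10 genes (CPM, log axis) in RGC, amacrine, bipolar and pooled rod and cone nuclei of the Cre- library (green) and the Tet tcKO library (purple), with exact 95% Poisson intervals as bars and classes without a UMI drawn as open triangles at 3 counts. Rbpms stands near 1000 CPM in RGCs and at 104 CPM or less elsewhere, whereas Nefl in Cre- is higher in rods and cones than in RGCs.

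The mix of member transcripts also differed between classes. In Cre- RGCs, Rbpms made up 54.7% of the UMIs of the 10 members and Nefl 8.69%. In Cre- rods, Rbpms made up 15.6% and Nefl 49.4%. In Tet tcKO the same shares were 64.0% and 4.67% in RGCs and 20.7% and 32.6% in cones.

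The comparison of the genotypes describes the members in nuclei that carry the RGC label. A nucleus without these transcripts may not have received that label. Similar levels of identity genes therefore do not test whether RGCs of Tet tcKO retinas kept them. Among RGC-annotated nuclei, the identity genes stood at similar levels in both libraries while the neurofilament subunits were lower in Tet tcKO. The size of the Nefm difference depended on the clusters, since it was -1.24 over all RGCs and -0.36 with clusters 2, 8 and 31 weighted equally, and it passed 2-fold in none of these 3. Differences are log2 ratios of Tet tcKO over Cre-, written as log2 with an exact conditional 95% interval for counting error. All members but Pou4f3 reached 10 CPM in RGCs of 1 library, and all but Pou4f2 and Pou4f3 did so over all nuclei. Of 9 members with a ratio in RGCs, 1 (Nefm) was 2-fold or more lower and 0 were 2-fold or more higher, while 3.20% of the 10262 genes at 10 CPM or more in either library were 2-fold lower and 3.53% 2-fold higher. The median log2 ratio was 0.03 over these members and 0.02 over all genes tested. Over all nuclei, 1 of 10 members (Nefl) was 2-fold lower and 0 were 2-fold higher, against 2.48% and 3.18% of 11158 genes.

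The intervals of Pou4f1 and Pou4f2 held 0. Pou4f1 stood at 52.0 CPM in Cre- RGCs (64 UMIs) and 58.6 CPM in Tet tcKO RGCs (125 UMIs) (log2 0.17, interval -0.27 to 0.63). Pou4f2, which acts early in ganglion cell differentiation, stood at 15.4 CPM (19 UMIs) and 16.9 CPM (36 UMIs) (log2 0.13, interval -0.71 to 1.01). Pou4f3 had 2 UMIs in the RGCs of each library and gives no ratio at this depth. Over all nuclei it had 7 and 8 UMIs.

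Rbpms and Rbpms2, paralogous RNA-binding proteins, also stayed close. Rbpms stood at 936 CPM (1152 UMIs) and 1067 CPM (2275 UMIs), and its log2 ratio of 0.19 had an interval above 0 (0.08 to 0.29). Rbpms2 stood at 155 CPM (191 UMIs) and 148 CPM (316 UMIs) (log2 -0.07, interval -0.33 to 0.20). By cluster, the Rbpms value was -0.11 (-0.27 to 0.04) in cluster 2, 0.43 (-0.03 to 0.86) in cluster 8 and -0.17 (-0.49 to 0.17) in cluster 31. These intervals overlapped, and the value was 0.01 with these clusters weighted equally. Counted once per nucleus it turned to -0.090.

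Slc17a6, the vesicular glutamate transporter of RGCs, stood at 63.4 CPM (78 UMIs) and 83.0 CPM (177 UMIs) (log2 0.39, interval -0.00 to 0.79). The interval reached 0. Of the 2 related transporters listed, 1 reached 10 CPM. This was Slc17a7, the transporter of photoreceptors and bipolar cells, at 84.5 and 64.2 CPM in the same nuclei (log2 -0.40, interval -0.77 to -0.01).

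The neurofilament subunits showed the largest differences of the set. Nefm stood at 197 CPM in Cre- RGCs (242 UMIs in 173 nuclei) and 83.5 CPM in Tet tcKO RGCs (178 UMIs in 141 nuclei) (log2 -1.24, interval -1.52 to -0.95). Nefl stood at 149 CPM (183 UMIs in 142 nuclei) and 77.8 CPM (166 UMIs in 131 nuclei) (log2 -0.93, interval -1.25 to -0.62). No nucleus carried more than 5 UMIs of either gene, and without the nucleus highest for the gene in each library the ratios were -1.25 and -0.95. In both, the Cre- interval lay wholly above the Tet tcKO interval.

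The other intermediate filament genes of these axons, from a list of 8 axonal cytoskeleton genes, were measured too. Nefh, the heavy subunit, stood at 63.4 CPM (78 UMIs) and 25.8 CPM (55 UMIs) (log2 -1.30, interval -1.82 to -0.78). In cluster 2 its levels of 53.5 (34.9 to 78.4) and 37.3 CPM (25.2 to 53.3) overlapped. Cluster 8 had 50 and 2 Nefh UMIs and cluster 31 had 2 and 8. As for Nefm, the RGC value of Nefh was taken over clusters that the genotypes filled unequally. Prph, encoding peripherin, stood at 18.7 CPM (23 UMIs) and 3.75 CPM (8 UMIs) over all RGCs (log2 -2.32, interval -3.69 to -1.11). Ina, encoding alpha-internexin, stood at 44.7 and 53.0 CPM (log2 0.24, interval -0.23 to 0.74), an interval that reached 0 on either side. Stmn2, a microtubule regulator, stood at 123 and 159 CPM (log2 0.37, interval 0.09 to 0.66). Of the 8 genes, 2 were 2-fold lower and 0 were 2-fold higher, against 3.20% and 3.53% of the 10262 genes tested in RGCs. The intervals of 4 lay below 0 and that of 1 above it, a count not given here for all genes. The list's median was -0.03.

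Thy1, a surface glycoprotein long used to purify RGCs, stood at 93.5 CPM (115 UMIs) and 95.2 CPM (203 UMIs) (log2 0.03, interval -0.31 to 0.37). Sncg, gamma-synuclein, stood at 48.8 CPM (60 UMIs) and 34.7 CPM (74 UMIs) (log2 -0.49, interval -1.002 to 0.02).

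Nefl and Nefm were also lower in Tet tcKO nuclei outside the RGCs. In amacrine nuclei, Nefl stood at 104 and 47.0 CPM (log2 -1.14, interval -1.62 to -0.66), and Nefm at 43.0 and 19.2 CPM (log2 -1.16, interval -1.91 to -0.38). These were the 2 of 9 members 2-fold lower there, where 6.44% of 10831 genes were. In pooled rods and cones, Nefl stood at 223 and 101 CPM (log2 -1.15, -1.27 to -1.02), Nefm at 49.4 and 28.6 CPM (-0.79, -1.04 to -0.54) and Sncg at 40.0 and 20.5 CPM (-0.96, -1.25 to -0.68). Thy1 differed the other way in these nuclei, at 34.7 and 50.9 CPM (0.55, 0.32 to 0.78). The Cre- pool held 5214 rod- and 265 cone-annotated nuclei, and the Tet tcKO pool 6 and 3225. In cone-annotated nuclei alone, the intervals overlapped for Nefl, at 126 (105 to 150) and 101 CPM (93.5 to 108). They also overlapped for Sncg, at 33.0 and 20.5 CPM, and for Thy1, at 36.8 and 50.9 CPM. Those of Nefm did not meet, at 45.6 (33.5 to 60.6) and 28.6 CPM (24.9 to 32.8). Only Nefl passed 2-fold among the 10 members in rods and cones, where 2.58% of 11377 genes were 2-fold lower and 6.67% 2-fold higher. Over all nuclei, the log2 ratios were -1.29 (-1.39 to -1.19) for Nefl, -0.98 (-1.14 to -0.82) for Nefm and -0.99 (-1.21 to -0.77) for Sncg.

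**Figure D2:**
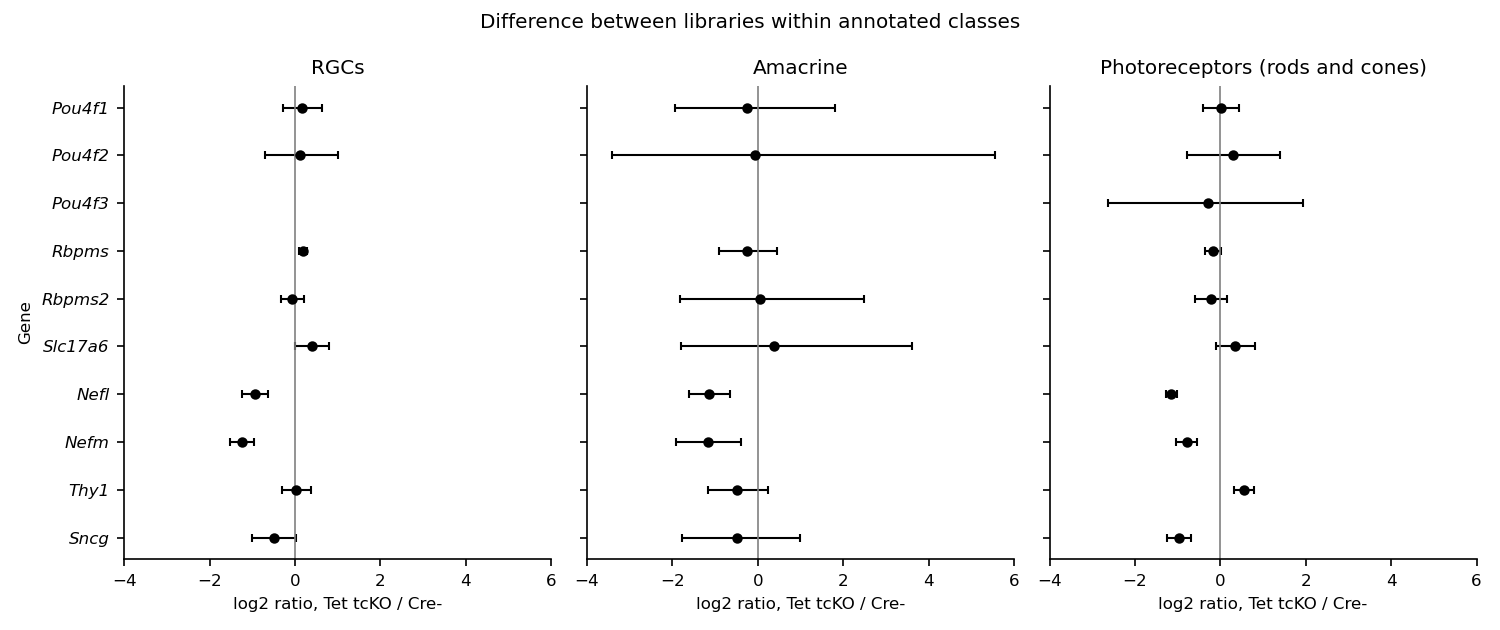
Log2 ratio of Tet tcKO over Cre- for each gene in RGC, amacrine and pooled rod and cone nuclei, with exact conditional 95% intervals; genes with 3 or fewer UMIs in both libraries are left out. Nefl and Nefm lie below 0 in all 3 panels, while Pou4f1, Pou4f2, Rbpms2 and Slc17a6 have intervals that reach 0 in each.

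Rod transcripts and mitochondrial transcripts moved with these genes. The rod marker list of 9 genes, all with a UMI, summed to 2280 CPM in Cre- RGCs and 963 CPM in Tet tcKO RGCs. Cluster sums ran from 1516 to 2913 CPM in Cre-, apart from 1299 CPM in the 4 nuclei of cluster 15. In Tet tcKO they ran from 843 to 1311 CPM. The cone list of 9 genes, also all with a UMI, went the other way, from 304 to 929 CPM. Mitochondrial genes held 2.02% of RGC UMIs in Cre- and 0.912% in Tet tcKO, and 6.98% and 2.55% in rods and cones. Over the 15 Cre- rod and cone clusters of 50 nuclei or more, the Nefl level ran from 125 to 410 CPM and followed the mitochondrial share with r = 0.96. Sncg followed it with r = 0.88, Pou4f1 with r = 0.80 and Nefm with r = 0.32. In the 8 Tet tcKO clusters r was 0.93 for Nefl, 0.95 for Sncg, 0.83 for Pou4f1, 0.83 for Slc17a6, 0.78 for Rbpms and 0.05 for Nefm. In Cre- it was 0.43 for Rbpms and 0.10 for Slc17a6. Clusters of a library share its preparation and their depth differs, so these are descriptions.

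**Figure D3:**
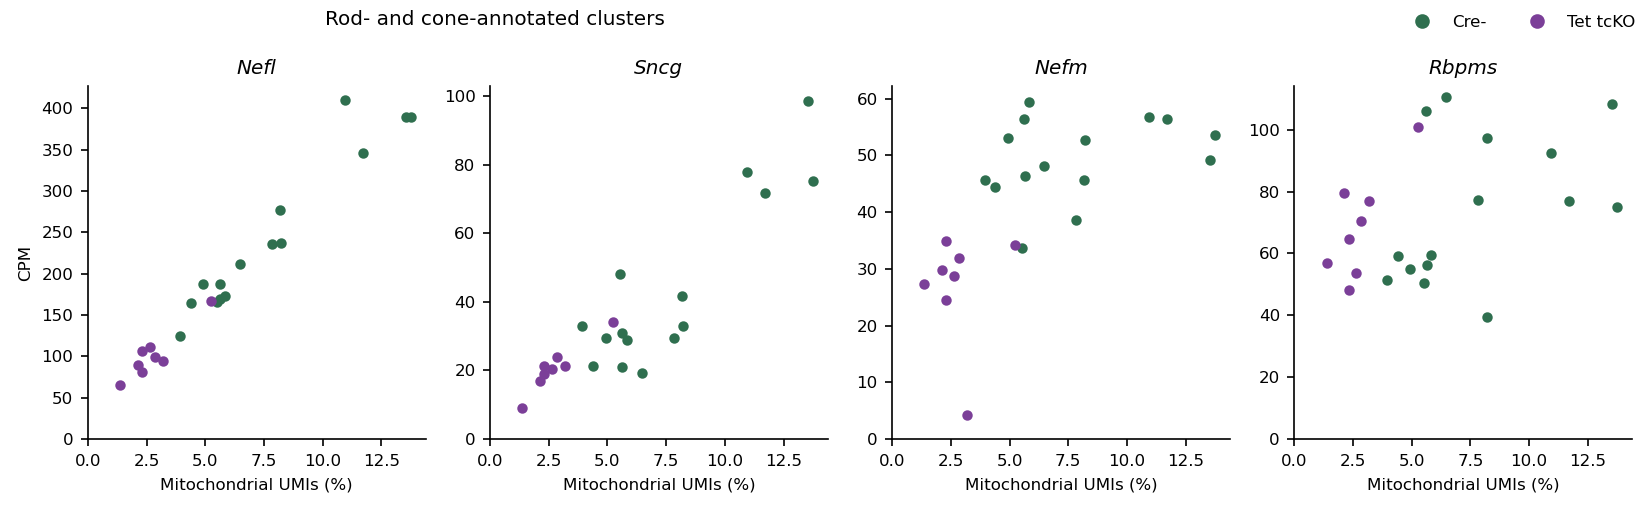
Level of Nefl, Sncg, Nefm and Rbpms (CPM) against the mitochondrial percent of UMIs, each point being 1 rod- or cone-annotated cluster of 50 nuclei or more in the Cre- (green, 15 clusters) or Tet tcKO (purple, 8 clusters) library. Nefl climbs with the mitochondrial share along the points of both libraries, from 65.9 to 410 CPM, and Nefm follows it less closely, with r of 0.32 in Cre- and 0.05 in Tet tcKO.

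Nefl and Nefm were also compared within narrow ranges of the mitochondrial share. Among RGC nuclei at 1% to under 2% mitochondrial UMIs (295 Cre- and 201 Tet tcKO nuclei), Nefm stood at 191 and 80.0 CPM (log2 -1.26, interval -1.81 to -0.73), as large as in all RGCs. Nefl stood at 136 and 106 CPM (log2 -0.36, interval -0.87 to 0.14). The intervals of the 2 genes overlapped, and the difference between them was not tested. At 2% to under 5% (233 and 31 nuclei), Nefm was at -0.72 (-2.09 to 0.39) and Nefl at -0.58 (-2.08 to 0.64). Below 1%, where Cre- had 12 nuclei and Tet tcKO 463, they were at -1.66 (-2.68 to -0.42) and -0.55 (-2.14 to 1.75). In the range of 1% to under 2%, Pou4f1 was at 49.3 and 88.6 CPM (log2 0.85, interval 0.18 to 1.51), and Rbpms at 0.11 (-0.05 to 0.27). These ranges were chosen after the data were seen. With the rod and cone level of the same library subtracted, Nefm was -1.43, Sncg turned to 0.69, and Nefl had no RGC level left above that of rods and cones. The part of rod and mitochondrial transcripts in the Nefl and Sncg differences was otherwise not tested.

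Split by RGC cluster, the neurofilament differences were uneven. In cluster 2, Nefm had 171 (Cre-) and 108 CPM (Tet tcKO) (log2 -0.66, interval -1.11 to -0.21), while Nefl stood at 92.6 and 83.3 CPM (log2 -0.15, interval -0.72 to 0.43). In cluster 31 Nefm stood at 70.7 CPM in both (6 and 33 UMIs). Its log2 interval of -1.27 to 1.55 takes in a 2-fold difference either way. Nefl there stood at 236 CPM (20 UMIs) and 77.2 CPM (36 UMIs) (log2 -1.61, interval -2.44 to -0.75). In cluster 8, where Tet tcKO had 29 nuclei, Nefm stood at 236 and 193 CPM (-0.29, -1.38 to 0.63) and Nefl at 178 and 135 CPM (-0.40, -1.75 to 0.69).

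The class value of Nefm also varied with the weight given to each cluster. Cluster 8, the main Cre- cluster, had the highest Cre- Nefm level, at 236 CPM (200 to 276), overlapping cluster 2 at 171 CPM (136 to 212). Cluster 15, with 217 Tet tcKO nuclei, had the lowest Tet tcKO level, at 59.2 CPM (43.7 to 78.5), overlapping cluster 31 at 70.7 CPM (48.7 to 99.3). With clusters 2, 8 and 31 weighted equally and cluster 15 left out, Nefm was at -0.36 and Nefl at -0.78, values given without an interval. The clusters were drawn from the expression of these same nuclei, so a lower level within a genotype and a shift between clusters cannot be told apart here.

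Values of other members varied by cluster too, though the intervals of Rbpms2 and those of Sncg overlapped between clusters. Rbpms2 stood at 130 CPM (63 UMIs) and 203 CPM (163 UMIs) in cluster 2 (log2 0.65, interval 0.22 to 1.09), against -0.90 (-2.55 to 0.36) in cluster 8 and 0.24 (-0.73 to 1.37) in cluster 31. Sncg in cluster 8 stood at 48.1 CPM (31 UMIs) and 135 CPM (7 UMIs) (log2 1.49, interval 0.06 to 2.70), whereas it was -0.73 (-1.55 to 0.10) in cluster 2. Pou4f1 had 32 UMIs in Cre- and 0 UMIs in Tet tcKO nuclei of cluster 8, where the level of 3 counts, the limit taken for a count of 0, is 57.8 CPM in 51883 UMIs (exact Poisson upper limit 71.1 CPM), above the Cre- level of 49.6 CPM. With clusters 2, 8 and 31 weighted equally, Pou4f1 turned to -0.86, a value that includes this count of 0. By number, 1 of 9 members was 2-fold higher in cluster 2 (background 8.41%), 3 of 8 in cluster 8 (20.6%) and 1 of 9 in cluster 31 (11.5%). In the other direction the counts were 0 in cluster 2 (5.10%), 0 in cluster 8 (7.64%) and 1 in cluster 31 (9.83%).

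**Figure D4:**
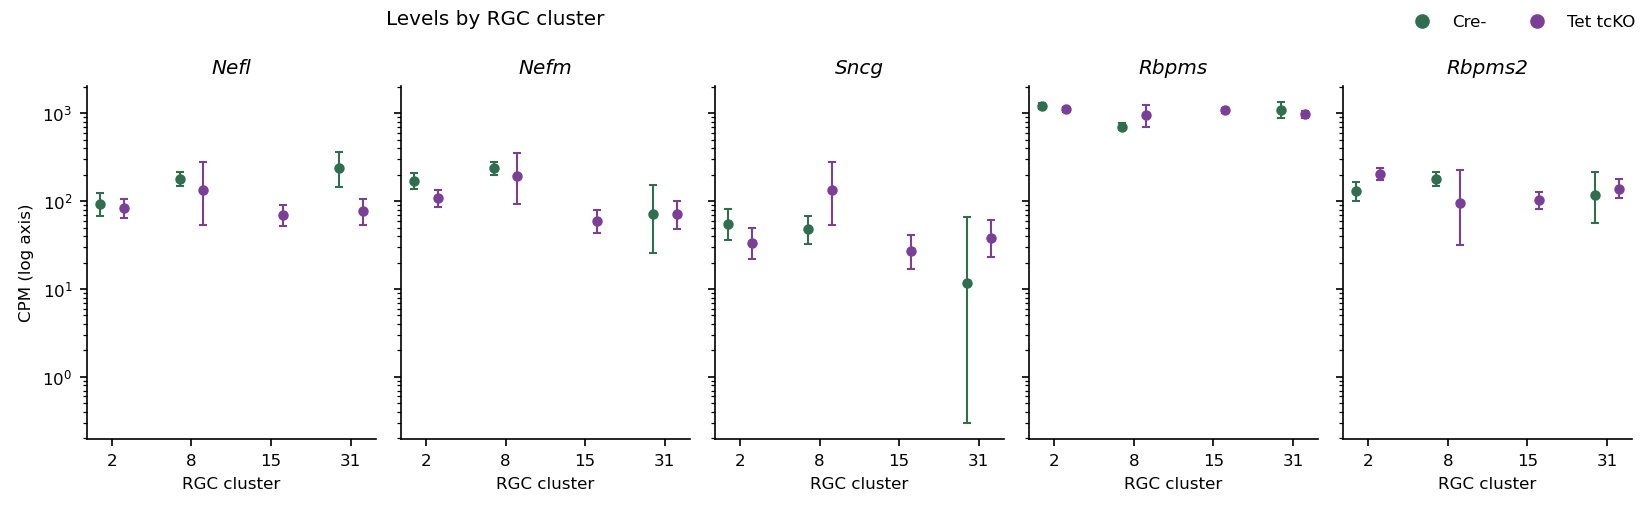
Levels (CPM, log axis) of Nefl, Nefm, Sncg, Rbpms and Rbpms2 in the 4 RGC clusters of the Cre- (green) and Tet tcKO (purple) libraries, with exact 95% Poisson intervals; cluster 15 of Cre- is left out with its 4 nuclei. Nefm is highest in Cre- cluster 8 and at 70.7 CPM in both libraries in cluster 31, and Nefl of Cre- stands apart from Tet tcKO in cluster 31.

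Nuclei with a transcript were also counted, in place of UMIs. The medians were 1601 and 2381 UMIs in RGCs and 1046 and 1714 UMIs in rods and cones, so each nucleus was thinned to 500 UMIs to equal depth, which left out 0 nuclei. Rbpms was then found in 31.2% (27.4 to 35.2, exact binomial interval) of Cre- RGCs and 41.9% (38.2 to 45.6) of Tet tcKO RGCs. At 1000 UMIs the shares were 57.0% (52.2 to 61.8) and 62.6% (58.9 to 66.2), with overlapping intervals. That depth left out 134 Cre- and 9 Tet tcKO RGCs, so the nuclei were not the same set as at 500 UMIs. At 500 UMIs Rbpms was found in 3.81% and 2.85% of rods and cones, which should lack it. Nefm was found in 10.6% (8.17 to 13.4) and 3.69% (2.43 to 5.36) of RGCs, and in 2.17% and 1.42% of rods and cones. Nefl was found in 7.05% and 3.27% of RGCs, under its shares of 12.4% and 5.42% in rods and cones of the same libraries. Amacrine nuclei had 4.47% and 2.97% and bipolar nuclei 5.04% and 2.61%, with intervals overlapping those of RGCs, so the Nefl share did not set RGCs apart at this depth. Before thinning, the RGC shares were 69.8% and 87.1% for Rbpms, 30.5% and 20.03% for Nefm and 25.0% and 18.6% for Nefl.

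Pou4f1, Slc17a6 and Thy1 had overlapping shares in both genotypes. After thinning they were found in 2.12%, 3.00% and 4.76% of Cre- RGCs and in 3.12%, 4.26% and 6.25% of Tet tcKO RGCs. In rods and cones these shares were 0.602%, 0.456% and 1.64% in Cre- and 0.867%, 0.588% and 2.88% in Tet tcKO.

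Few RGC nuclei carried several members at once at this depth. At least 1 of the 10 genes was found in 53.4% (49.2 to 57.6) of Cre- RGCs and 57.5% (53.8 to 61.2) of Tet tcKO RGCs, and in 22.1% and 14.9% of rods and cones. At least 2 were found in 13.4% and 13.9% of RGCs, and in 2.10% and 0.836% of rods and cones. The share with 3 or more was 2.65% (15 nuclei) and 1.14% (8 nuclei) of RGCs, with 4 of 5479 and 1 of 3231 rods and cones. All these shares depended on depth, and without thinning at least 2 members were found in 60.7% and 71.2% of RGCs.

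**Figure D5:**
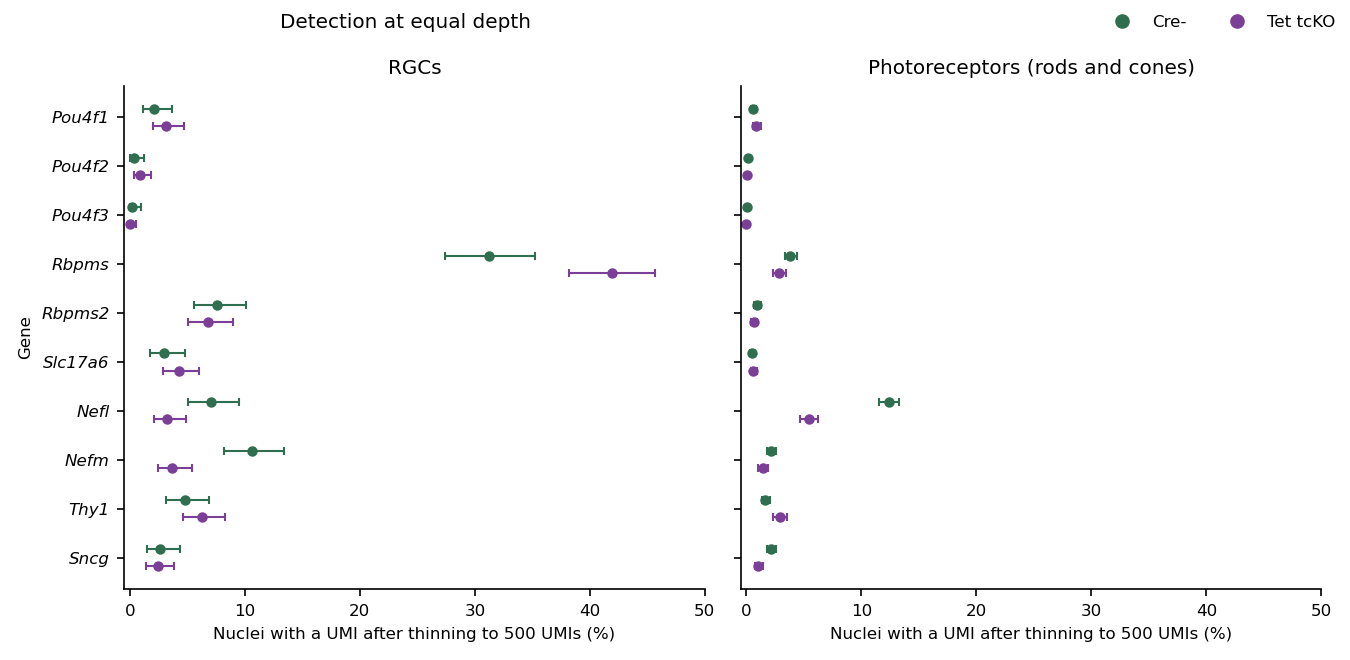
Percent of RGC nuclei (left) and of rod and cone nuclei (right) with a UMI of each gene after every nucleus was thinned to 500 UMIs, for Cre- (green) and Tet tcKO (purple), with exact binomial 95% intervals. Rbpms is found in 31.2% and 41.9% of RGCs, Nefm in fewer Tet tcKO than Cre- RGCs, and Nefl in more rods and cones than RGCs.

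Further genes of RGC identity, subtype and surface were taken from fixed lists, chosen with earlier results of these data known. Of 20 transcription factors, 17 reached 10 CPM in RGCs of 1 library. Of these, 1 was 2-fold higher and 0 were 2-fold lower, against 3.53% and 3.20% of the 10262 genes tested in RGCs. Their median was 0.15, with intervals above 0 for 4 and below 0 for 0, a count not given here for all genes. Isl2, a LIM-homeodomain factor of RGCs, stood at 4.88 CPM (6 UMIs) and 25.3 CPM (54 UMIs) (log2 2.38, interval 1.16 to 3.88). Sox4, active in neuronal differentiation, stood at 24.4 and 43.6 CPM (log2 0.84, interval 0.23 to 1.48). The lowest were Tbx20 at -0.74 (-1.60 to 0.14) and Ebf2 at -0.73 (-1.64 to 0.18), both with intervals reaching 0.

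Of 9 subtype genes, 5 reached 10 CPM, with a median of -0.38. Of these, 2 were 2-fold lower and 0 were 2-fold higher, against 3.20% and 3.53% of all genes tested in RGCs. Spp1, osteopontin, a marker of large alpha-type RGCs, stood at 24.4 CPM (30 UMIs) and 5.63 CPM (12 UMIs) (log2 -2.12, interval -3.22 to -1.11). Cartpt, a neuropeptide precursor of direction-selective RGCs, stood at 48.0 CPM (59 UMIs) and 18.3 CPM (39 UMIs) (log2 -1.39, interval -2.01 to -0.78). Jam2 stood at 0.03 (-0.42 to 0.48) and Igf1 at -0.01 (-0.29 to 0.28), the 2 highest of the list. Spp1 was among the 10 genes that led cluster 8 over other nuclei, which the genotypes filled unequally.

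Among surface genes, Alcam, a cell adhesion molecule of RGC axons, stood at 91.9 and 143 CPM (log2 0.64, interval 0.32 to 0.96). Nrn1, neuritin, stood at 144 and 114 CPM (log2 -0.33, interval -0.62 to -0.04), and L1cam, another axonal adhesion molecule, at -0.26 (-0.57 to 0.06). Over all nuclei, RGCs included, Alcam was at 0.67 (0.52 to 0.83), Nrn1 at -0.13 (-0.33 to 0.07) and L1cam at 0.76 (0.60 to 0.91). Sox4 (0.73, 0.53 to 0.94) and Cartpt (-0.87, -1.07 to -0.67) also kept their RGC direction over all nuclei. Whether any of these differences is particular to RGCs was not tested. Of the 3 neuronal RNA-binding genes, 0 passed 2-fold either way, where 3.20% of all genes tested in RGCs were 2-fold lower and 3.53% higher. Elavl2 stood at 0.21 (-0.03 to 0.45), Elavl4 at 0.08 (-0.17 to 0.34) and Elavl3 at -0.24 (-0.36 to -0.12).

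The members did not share 1 pattern over cell populations. Over 47 cluster-by-library populations of 50 nuclei or more, Pearson's r of log2(CPM + 1) was 0.86 between Rbpms and Slc17a6, 0.81 between Rbpms and Rbpms2, 0.78 between Pou4f1 and Rbpms2 and 0.76 between Pou4f1 and Rbpms. Nefm stood closest to Rbpms, at 0.67. Nefl was at 0.25 with Rbpms, 0.45 with Nefm and 0.66 with Sncg, so the 2 neurofilament subunits resembled different members. These populations share libraries and differ in depth, and r is given as a description.

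Among 11158 genes, those most like each member over the same 47 populations were found by r. They were Rbpms2 (0.78) and Rbpms (0.76) for Pou4f1, Prune2 (0.74) and D130079A08Rik (0.72) for Pou4f2, and Bckdhb (0.42) and 2510009E07Rik (0.42) for the sparse Pou4f3. For Rbpms they were Srgap1 (0.90) and Ebf1 (0.89), for Rbpms2 Ahnak2 (0.81) and Rbpms (0.81), and for Slc17a6 Nrn1 (0.87) and Rasgrp2 (0.86). Nefl was most like Camk2n1 (0.94), an inhibitor of the calcium/calmodulin kinase, and Bc1 (0.92), a noncoding RNA of neuronal dendrites. Nefm was most like Cdkl2 (0.70) and Syt2 (0.69), Thy1 like 9530036O11Rik (0.81) and Neto2 (0.77), and Sncg like Prxl2b (0.72) and Ogfrl1 (0.72).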

How the data were processed

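Nuclei of whole retinas were profiled by snRNA-seq (PIPseq 3′ chemistry). Per the labels, reads were processed with pipseeker v3.3.0 and aligned to GRCm39, and no source used here gives the strand setting of counting. The authors removed ambient RNA with CellBender v0.3.0 (cell probability 0.99) and, in Monocle3, set bounds of 500 and 10000 transcripts per nucleus and a mitochondrial limit of 20%. The deposited matrices hold UMI counts per gene and nucleus, and the matrix sums equalled the deposited total counts in all 7357 and 6766 nuclei. The mitochondrial percent, the size factor (a ratio) and the per-genotype signal of the gene table, as deposited by the authors, were not used for levels. Clusters and cell types are the authors' annotation.

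Levels (CPM) are the UMIs of a gene in a class and library per 1000000 UMIs there. With 1 library per genotype no test was run. Intervals are exact at 95% (Poisson, conditional binomial, Clopper-Pearson) and cover counting error only, and UMIs of a nucleus are not independent of each other. No ratio was formed from 2 counts of 3 or fewer. Genes at 10 CPM or more in 1 library formed the background. Nuclei were thinned to 500 UMIs for shares. No doublet calls were used, and an alternative left out the 5% of nuclei with the most UMIs. Members, lists and alternatives were chosen with earlier results of these data known. All 10 members were named, with the 2 genes of the highest correlation for each, and from each further list the 2 highest and 2 lowest log2 ratios in RGCs among genes at 10 CPM or more. The result of 1 further listed gene, and the counts of its list, are not reported here. Steps were tested on simulated data. Python 3.11.15, numpy 2.4.6, scipy 1.17.1, pandas 2.3.3 and, for TMM factors, edgeR 4.0.16 in R 4.3.3 were used. Promoter windows are from RefSeq (GRCm38.p6), coordinates from GENCODE (GRCm39).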

Additional observations from a re-analysis of the deposited data

Results flagged for a closer look

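The deposited gene table counts the nuclei with each gene over the whole series, a column that no comparison above used. For Nefl it gives 3255 nuclei, whereas the matrices hold 2897 nuclei with a Nefl UMI, a difference of 358 nuclei and the largest among the 10 members. For Rbpms it gives 2560 against 2329 nuclei, and for Pou4f3 14 against 14. What set of nuclei the column was counted over was not tested.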

How the results depend on the processing

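The median log2 ratio of the members stayed within the counting interval of its middle members under every alternative run, from -0.18 to 0.16 in RGCs and from -0.13 to 0.06 over all nuclei, except that it was -0.26 in nuclei not annotated RGCs, an alternative added after the data were seen. Of 179 values of single genes, 154 lay inside the reported counting interval, 22 moved out of it with the sign kept or a reported interval that held 0, and 3 changed sign where the reported interval had not held 0, all of Rbpms. The sign of the reported value was kept in 161. The 3 of Rbpms were -0.090 in RGCs and -0.14 in all nuclei when genes were counted once per nucleus, and -0.29 over nuclei not annotated RGCs. In RGCs, Nefm ranged from -1.43 to -0.36 and Nefl from -1.17 to -0.36, with no change of sign, while Sncg ranged from -0.57 to 0.84 and Pou4f1 from -0.86 to 0.85. Pou4f2 (-0.33 to 0.86), Thy1 (-0.41 to 0.62) and Rbpms2 (-0.18 to 0.19) also crossed 0, and the reported intervals of these 5 genes held 0. When both libraries were given the class shares of Cre-, rods and cones merged, the all-nuclei median was 0.02.

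Over all nuclei 632 genes passed 2-fold, with 1868 at a filter of 1 CPM and 262 at 50 CPM. In RGCs 690 passed, with 2388 at 1 CPM and 129 at 50 CPM, as more or fewer genes were tested. TMM moved the median of all genes over all nuclei from 0.15 to 0.04 and the split from 355 higher and 277 lower to 276 and 356 (275 and 356 with median-of-ratios factors), and Nefl was then at -1.40. In RGCs, counting each gene once per nucleus moved the split from 362 and 328 to 648 and 375. At least 1 member was found in 89.9% of Cre- and 95.03% of Tet tcKO RGCs without thinning and in 82.4% and 79.7% at 1000 UMIs. At least 2 were found in 60.7% and 71.2% without thinning and in 33.3% and 32.8% at 1000 UMIs. The depth of 1000 UMIs left out 134 Cre- and 9 Tet tcKO RGCs, so these shares are of different sets of nuclei. Counted as nuclei with a UMI, RGCs held 22.8% of member detections in Cre- and 33.2% in Tet tcKO. Of the 20 pairs of a member and a most similar gene, 3 recurred with annotated classes in place of clusters. No paired analysis was possible because each genotype had 1 library, and leaving out a replicate could not be run for the same reason. Depth limits Pou4f2 and Pou4f3, and the Tet tcKO part of cluster 8.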
